A study of Mus musculus with 24 samples.

Results

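The genes described here are 4 genes of the cellular response to zinc: *Mt1* and *Mt2*, which encode metallothioneins, *Mtf1*, which encodes the metal-responsive transcription factor MTF1, and *Slc30a1*, which encodes the zinc exporter ZnT1. They were chosen by name among the 18669 genes of the count table (NCBI gene identifiers 17748, 17750, 17764 and 22782), and all 4 of the 4 passed the filter on low counts that left 13754 genes for testing. RNA was sequenced from the *quadriceps femoris* muscle of 24 mice, 2 in each of 12 groups, 4 h after treatment, to compare the transcriptional response to a heat shock (HS) with that to inhibition of the chaperone HSP90. The genotypes were wild type, R6/2, which carries a transgene for exon 1 of mutant human huntingtin under the human *HTT* promoter and models Huntington's disease, and Hsf1-/-, which lacks the heat shock transcription factor HSF1 in all cells. All mice were of the CBA x C57BL/6 F1 background according to the labels. HS mice were anaesthetised and warmed to 41.5 °C for 15 min, and their controls were anaesthetised and kept at 36.9 °C for 21 min. The HSP90 inhibitor NVP-HSP990 (HSP990) was given by oral gavage at 12 mg/kg in methyl cellulose and saline, while the vehicle group is labelled as having received saline only. Wild type and R6/2 mice were 12 weeks old, whereas Hsf1-/- mice were 10 weeks old in the HS experiment and 8 weeks old in the HSP990 experiment, so genotype and age cannot be told apart for them.

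Metallothioneins are small, cysteine-rich proteins that bind zinc and copper and buffer the free metal in the cytosol. When free zinc rises, MTF1 binds zinc through its fingers, moves to the nucleus and binds metal response elements (MREs) in the promoters of *Mt1*, *Mt2* and *Slc30a1*, so that the metal is both bound and exported. *Mt1* and *Mt2* are also induced by glucocorticoids, by cytokines of the interleukin-6 type and by oxidative stress, and in skeletal muscle they are known to rise with atrophy and stress hormones. The remaining mouse metallothioneins, *Mt3* of the brain and *Mt4* of stratified epithelia, lie in the same cluster.

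*Mt2* and *Mt1* lie next to each other on the plus strand of chromosome 8 (mm9, chr8:96696518-96697467 and chr8:96702989-96704225), with 5521 bases between them and 3 exons each. Neither overlaps another annotated gene, their transcripts of 556 and 540 bases share none of the 40-base stretches that a read spans, and no near-identical copy of either was found in the genome. *Mtf1* (chr4:124479348-124527044, plus strand, 11 exons) and *Slc30a1* (chr1:193730646-193737126, plus strand, 2 exons) each overlap a protein-coding gene on the opposite strand, *1110065P20Rik* over 316 exonic bases and *1700034H15Rik* over 468. The libraries were strand-specific, but whether the counting used the strand is not given in the sources used here, so the counts of *Mtf1* and *Slc30a1* may include reads of these partners.

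The sites below are matches to the core sequence of the MRE, the element through which MTF1 is known to act. Binding of MTF1 at these matches was not tested. The MRE core was searched as TGCACNC or TGCGCNC on both strands. In the 300 bases before the TATAAA box upstream of the coding start, *Mt1* held 5 matches and *Mt2* 6. In the promoter windows of RefSeq (GRCm38.p6, 250 bases before to 50 bases after the start, each found once in mm9), *Mt1* held 3, *Mt2* 4, *Slc30a1* 2 and *Mtf1* 0. Of 32851 such windows of all genes, 25.7% held at least 1 match, 7.11% at least 2, 1.97% at least 3 and 0.517% at least 4. The heat shock element was searched in the short form GAANNTTC or TTCNNGAA, which 15.1% of the windows held, and the glucocorticoid response element as its full palindromic consensus, which 0.00913% held. None of the 4 windows of the members held either. So few windows hold the full palindromic consensus that its absence from 4 of them carries no information. An antioxidant response element, searched as TGACNNNGC, was found in 12.4% of the windows. Among the members, the windows of *Mt2* and *Slc30a1* held 1 match each and those of *Mt1* and *Mtf1* held 0. The 300 bases before the TATAAA box held 1 match each in *Mt1* and *Mt2*. Below, 27 bases around a core are given on the plus strand of mm9 with the core in capitals (where the core lies on the minus strand, the capitals show its reverse complement). For *Mt1* and *Mt2* only some of the 5 and 6 matches before the TATA box are printed. The annotated 5′ end of *Mt1* and *Mt2* lies 121 and 135 bases before the TATA box, so several of the sites fall within what the annotation counts as the first exon.
Mt1, chr8:96702956-96702982, core 144 bases before the TATA box: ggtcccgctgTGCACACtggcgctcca
Mt1, chr8:96702999-96703025, core 101 bases before the TATA box: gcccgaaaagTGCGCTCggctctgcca
Mt1, chr8:96703077-96703103, core 23 bases before the TATA box: gcaaacccttTGCGCCCggactcgtcc
Mt2, chr8:96696380-96696406, core 263 bases before the TATA box: gcagacccttTGCGCTCagctcctttg
Mt2, chr8:96696566-96696592, core 77 bases before the TATA box: gaaaaagggcGTGTGCAggcggcgggg
Mt2, chr8:96696619-96696645, core 24 bases before the TATA box: gcggagctttTGCGCTCgacccaatac
Slc30a1, chr1:193730607-193730633, core upstream of the annotated start: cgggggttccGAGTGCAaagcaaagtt
Slc30a1, chr1:193730680-193730706, core downstream of the annotated start: cctccgggccGAGCGCAgtcgccgcgg

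Library totals were 22450177 to 46599238 counts, so that a gene at 1 CPM (a count divided by the library total, scaled here by TMM for library composition) had more than 20 counts in every library. The 6 skeletal muscle markers summed to 188222 to 253233 CPM in wild type and Hsf1-/- mice and to 39740 to 86010 CPM in R6/2 mice. Markers of other cells summed to 307 to 530 CPM (endothelial), 421 to 881 CPM (fibroblast), 14.4 to 36.5 CPM (leukocyte) and 26.6 to 488 CPM (adipocyte). edgeR called none of these markers in the 6 treatment comparisons, although 13 of 24 endothelial, 4 of 24 fibroblast, 3 of 24 leukocyte and 1 of 24 adipocyte tests had an unadjusted p below 0.05 and DESeq2 called 1, 1, 0 and 0. Of the tests of all genes in these comparisons, 10.2% had an unadjusted edgeR p below 0.05, so the endothelial markers stood above that share. Their part in the results below was not tested. *Hsf1* itself stood at 21.1 to 29.0 CPM in the 8 Hsf1-/- libraries and at 45.3 to 68.5 CPM in the 16 others, so every Hsf1-/- library lay below every other, with part of the transcript still counted. The 4 Y-linked genes summed to at most 0.0881 CPM in the wild type and R6/2 mice of the HS experiment and to at least 163 CPM in all other mice. Comparisons between the experiments in wild type and R6/2 mice therefore also compare mice without and with these transcripts, and the same holds for HS-experiment comparisons of Hsf1-/- with wild type mice. In whole muscle, fewer cells of a type and less RNA per cell cannot be told apart. With 2 mice a group, an exact two-sided permutation test of a single gene cannot give a p below 0.333, and the tests below rest on a spread shared over all 24 libraries.

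HS raised both metallothioneins strongly in wild type mice. *Mt1* stood at 12.7 and 15.7 CPM in the control mice and at 237 and 284 CPM in the HS mice. *Mt2* stood at 8.05 and 10.3 CPM in the control mice and at 231 and 330 CPM after HS. Every HS mouse was far above every control mouse for both genes. Groups that did not overlap in the upward direction were found for 23% of all tested genes here. The rise was 18.3-fold for *Mt1* (log2 fold change 4.20 ± 0.75 SE, 95% interval of the fold 6.11 to 55.0, edgeR adjusted p = 0.0064). It was 30.5-fold for *Mt2* (log2 fold change 4.93 ± 1.00 SE, interval 7.01 to 133, edgeR adjusted p = 0.014). Of all tested genes, 2.06% were called in this comparison and 1.59% were called higher, and by size *Mt2* was the 8th and *Mt1* the 11th of the 219 called rises. Both calls were lost when either wild type control mouse was left out (edgeR adjusted p = 0.14 and 0.092 for *Mt1*, 0.20 and 0.16 for *Mt2*), and that of *Mt2* also without the second HS mouse (0.074), while the rises remained between 4.05 and 4.36 for *Mt1* and between 4.65 and 5.17 for *Mt2* over all alternatives on the log2 scale.

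**Figure D1:**
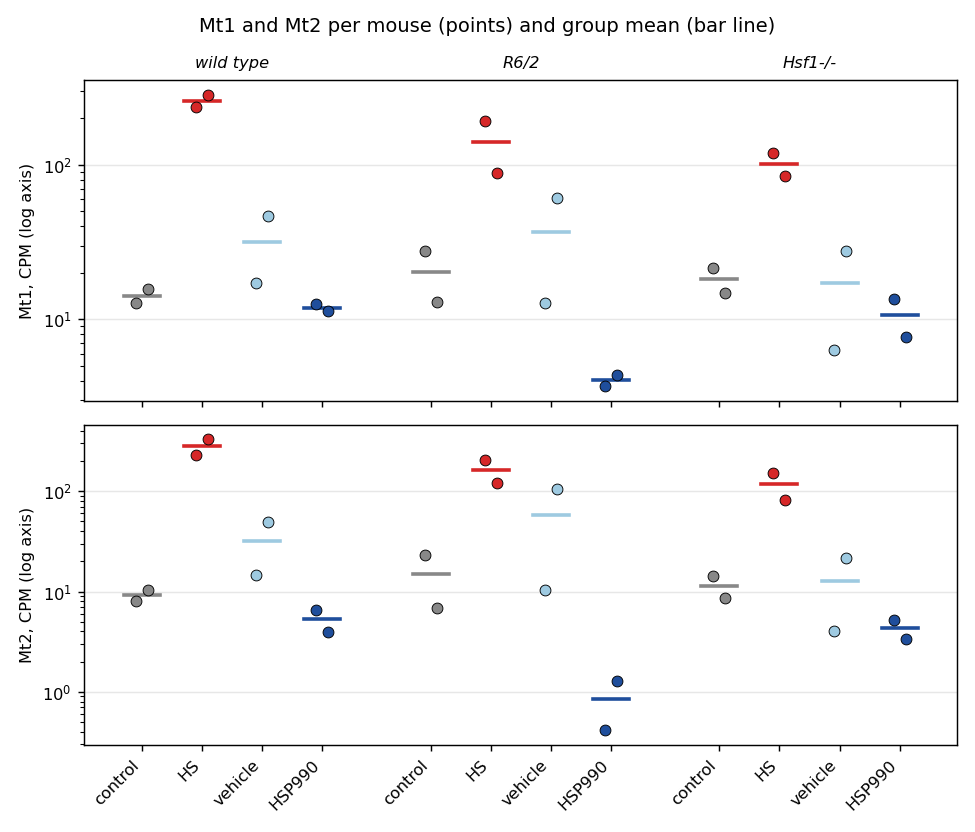
CPM of *Mt1* (top) and *Mt2* (bottom) on a log axis in the 12 groups, with 1 point per mouse and a line at the mean of the 2 mice of a group. The 6 HS mice lie between 84.7 and 284 CPM for *Mt1*, above all 18 other mice, and the 2 HSP990-treated R6/2 mice are the lowest for both genes. For *Mt2* the HS mice lie between 82.2 and 330 CPM, and 1 other mouse, an R6/2 vehicle mouse at 105 CPM, is above the lowest of them.

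In R6/2 mice the metallothioneins were also higher after HS, from more variable levels. *Mt1* was at 27.5 and 12.9 CPM in R6/2 controls and at 193 and 88.9 CPM after HS. *Mt2* was at 22.9 and 6.81 CPM in controls and at 204 and 121 CPM after HS. The groups did not overlap for either gene, which held for 15.1% of all tested genes in the upward direction. The fold changes were 6.96 for *Mt1* (log2 2.80 ± 0.70 SE, interval of the fold 2.50 to 19.4) and 10.9 for *Mt2* (log2 3.45 ± 0.93 SE, interval 2.80 to 42.5). Neither passed the adjustment over all genes (edgeR adjusted p = 0.18 and 0.22, unadjusted 0.00097 and 0.0018), in a comparison in which 0.0436% of all genes were called. DESeq2 called both on the same libraries (adjusted p = 0.025 for *Mt1* and 0.041 for *Mt2*). It also called many more genes in this comparison than edgeR, with the numbers given below. Without 1 mouse at a time, the log2 fold change of *Mt1* ranged from 2.14 to 3.45.

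In Hsf1-/- mice, in which none of 7 heat shock protein genes was called after HS, the metallothioneins were again above the controls. *Mt1* was at 21.3 and 14.9 CPM in control mice and at 119 and 84.7 CPM after HS. *Mt2* was at 14.3 and 8.65 CPM in control mice and at 153 and 82.2 CPM after HS. The groups did not overlap, which held for 20.8% of all tested genes in the upward direction. *Mt1* was 5.61-fold higher (log2 2.49 ± 0.70 SE, interval of the fold 2.01 to 15.6) and *Mt2* 10.3-fold higher (log2 3.36 ± 0.94 SE, interval 2.60 to 40.5), both with an edgeR adjusted p of 0.19 (unadjusted 0.0025 and 0.0024) against 0.00727% of all genes called. When only these 2 groups were fitted, both were called (edgeR adjusted p = 0.012 and 0.017), and DESeq2 called *Mt2* (adjusted p = 0.046). Both of these settings called many more genes in this comparison than the main fit, with the numbers given below. The 7 heat shock protein genes (*Hspa1a*, *Hspa1b*, *Hsp90aa1*, *Dnajb1*, *Hspb1*, *Hspa8* and *Hsph1*) summed to 116 to 120 CPM in these control mice and to 117 to 188 CPM after HS, beside 197 to 225 and 2797 to 2971 CPM in wild type mice. Of the 7 genes, edgeR gave 0 an unadjusted p below 0.05 after HS in Hsf1-/- mice and DESeq2 called 0. After HS 6 of the 7 were called higher in wild type and 3 in R6/2 mice.

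The response of the metallothioneins to HS was not shown to differ between genotypes. The log2 response of *Mt1* minus that in wild type mice was -1.40 ± 0.94 SE in R6/2 (95% interval of the difference -3.39 to 0.59) and -1.71 ± 0.95 SE in Hsf1-/- mice (interval -3.72 to 0.30). For *Mt2* the differences were -1.48 ± 1.22 SE (interval -4.07 to 1.10) and -1.57 ± 1.24 SE (interval -4.18 to 1.04). The edgeR adjusted p of these 4 interaction tests was 0.99 or 1.00, and DESeq2 called none of them. In the same tests 0.0727% of all genes were called for R6/2 and 0.16% for Hsf1-/- mice, all of them with a negative difference from wild type mice. All 4 intervals include 0 and also differences of more than 3 log2 units.

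After HSP990 both metallothioneins fell in R6/2 mice, while neither passed the test in wild type or Hsf1-/- mice. Among R6/2 mice *Mt1* stood at 12.7 and 60.7 CPM with vehicle and at 3.69 and 4.36 CPM with HSP990. *Mt2* stood at 10.3 and 105 CPM with vehicle and at 0.413 and 1.29 CPM with HSP990, the latter resting on 16 and 62 counts. These are the lowest levels of both genes among all 24 mice. *Mt1* was 9.07-fold lower (log2 fold change -3.18 ± 0.73 SE, edgeR adjusted p = 0.038) and *Mt2* 65.5-fold lower (log2 fold change -6.03 ± 1.11 SE, 95% interval -8.39 to -3.68, edgeR adjusted p = 0.0096). In this comparison 1.43% of all tested genes were called and 0.96% were called lower, and *Mt2* was the 3rd and *Mt1* the 16th largest of the 132 called falls. The second vehicle mouse set the size of the fall: without it the log2 fold changes were -1.65 for *Mt1* (edgeR adjusted p = 0.52) and -3.55 for *Mt2* (adjusted p = 0.16). Without the first or the second HSP990-treated mouse the adjusted p was 0.32 and 0.21 for *Mt1* and 0.16 and 0.082 for *Mt2*, and with only the 2 groups in the fit it was 0.24 and 0.20.

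In wild type mice both metallothioneins were lower with HSP990 than with vehicle in every mouse, but neither passed the test. *Mt1* was at 17.1 and 46.5 CPM with vehicle and at 12.5 and 11.3 CPM with HSP990 (log2 fold change -1.42 ± 0.69 SE, edgeR adjusted p = 0.39). *Mt2* was at 14.8 and 49.6 CPM with vehicle and at 6.59 and 3.98 CPM with HSP990 (log2 fold change -2.62 ± 0.94 SE, unadjusted p = 0.013, edgeR adjusted p = 0.21). Groups that did not overlap in the downward direction were found for 24.7% of all genes here, and 1.85% were called. The heat shock protein genes named above summed to 7805 to 8224 CPM in the same HSP990-treated mice, beside 352 to 412 CPM with vehicle.

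In Hsf1-/- mice the groups overlapped. *Mt1* was at 6.31 and 27.9 CPM with vehicle and at 13.5 and 7.66 CPM with HSP990, and *Mt2* was at 4.05 and 21.4 CPM and at 5.24 and 3.37 CPM. The log2 fold changes were -0.68 ± 0.68 SE and -1.55 ± 0.93 SE (edgeR adjusted p = 0.82 and 0.64, with 0.218% of all genes called and 0.0509% called lower). The response to HSP990 was not shown to differ from that of wild type mice in either genotype (edgeR adjusted p of 0.63 to 0.94 over the 4 tests). The largest of these differences was that of *Mt2* in R6/2 mice, -3.41 ± 1.37 SE with an unadjusted p of 0.024. In that comparison edgeR called 0 genes in all, with 981 genes at an unadjusted p below 0.05 and 49 genes called by DESeq2. For Hsf1-/- mice 0.422% of all genes were called, with 0.0945% called for a positive difference from wild type mice.

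**Figure D2:**
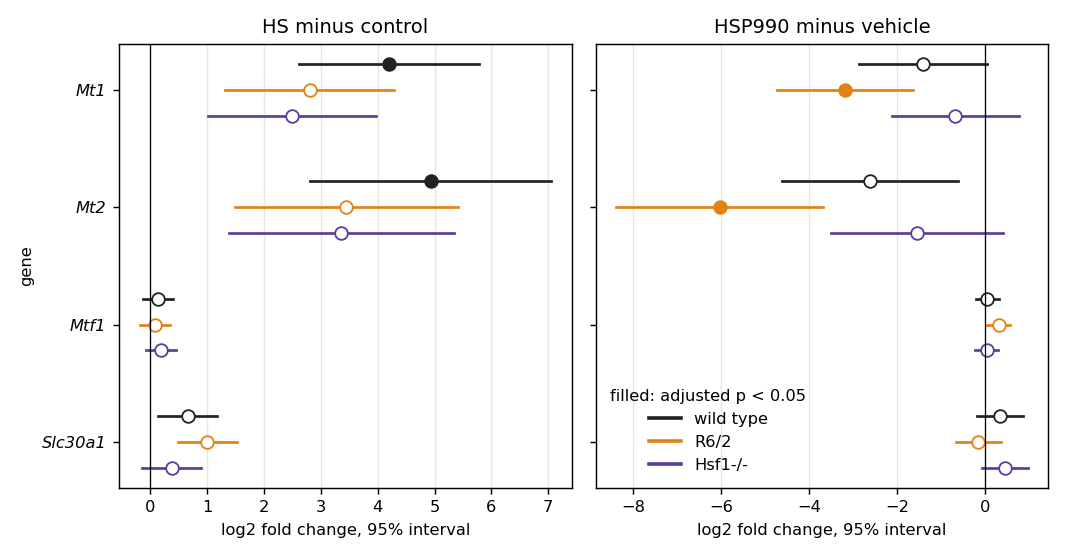
Log2 fold changes with 95% intervals of the 4 genes after HS (left) and HSP990 (right), by genotype; filled points passed an adjusted p of 0.05. *Mt1* and *Mt2* lie to the right of 0 after HS in all 3 genotypes and to the left of 0 after HSP990, where the intervals of *Mt1* in wild type mice and of both genes in Hsf1-/- mice cross 0, whereas *Mtf1* and *Slc30a1* stay within about 1 log2 unit of 0.

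The difference between the responses to HS and to HSP990 was tested directly, since HS and HSP990 mice had separate controls. In wild type mice the log2 response of *Mt1* to HS exceeded that to HSP990 by 5.62 ± 1.01 SE and that of *Mt2* by 7.56 ± 1.37 SE (edgeR adjusted p = 0.0061 and 0.0063, with 2.38% of all genes called, 1.32% in this direction). The differences in R6/2 mice were 5.98 ± 1.01 SE and 9.48 ± 1.45 SE (edgeR adjusted p = 0.0045 and 0.0026, with 1.63% called, 1.33% in this direction), and that of *Mt2* was the largest of the 183 called in this direction. In Hsf1-/- mice they were 3.17 ± 0.97 SE and 4.91 ± 1.31 SE and were not called (edgeR adjusted p = 0.23 and 0.15, unadjusted 0.0047 and 0.0017, with 0.145% called, 0.0945% in this direction and 0.0509% in the other). DESeq2 called that of *Mt2* (adjusted p = 0.031) and also called more genes in this comparison than edgeR, with the numbers given below. With only the groups compared in the fit neither R6/2 difference was called (edgeR adjusted p = 0.053 for both), and that of *Mt2* in wild type mice was lost without the first control or the second HSP990-treated mouse (0.055 and 0.056). Each of the 2 treatments raised 6 of the 7 heat shock protein genes in wild type mice, whereas *Mt1* and *Mt2* were called higher only after HS there.

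*Mt1* and *Mt2* followed each other closely, but not in proportion. Over the 24 libraries, which share groups and depth, Pearson's r of their log2 levels was 0.985, and over the 18 libraries of mice that were not heat shocked it was 0.977. The number of *Mt2* counts for each *Mt1* count was 0.528 to 0.832 in the 6 control mice. It was 0.970 to 1.36 in the 6 HS mice and 0.112 to 0.528 in the 6 HSP990-treated mice. In the 6 vehicle mice it was 0.642 to 1.73, with the highest value in the R6/2 mouse in which both genes were highest. *Mt2* counts were close to or above *Mt1* counts after HS and were the fewer after HSP990, in all 3 genotypes.

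**Figure D3:**
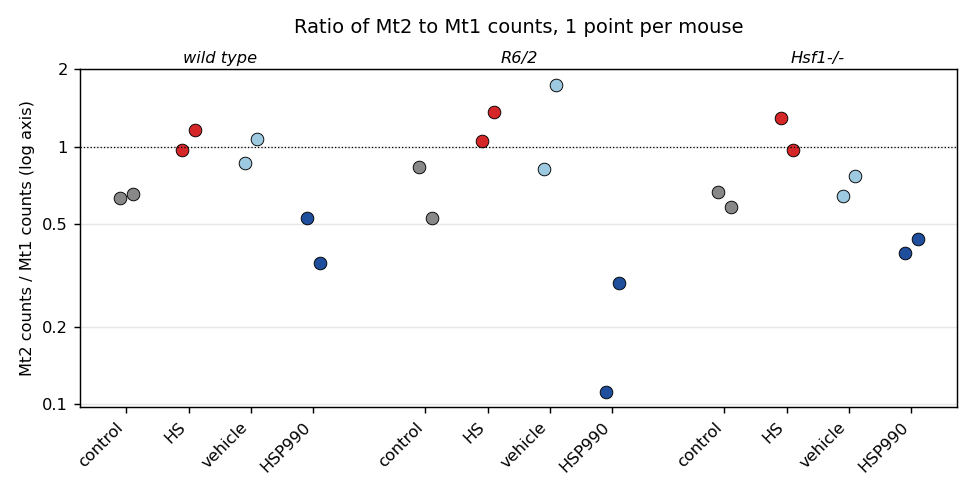
Ratio of *Mt2* to *Mt1* counts within a library on a log axis, 1 point per mouse in the 12 groups; the dotted line marks equal counts. HS mice lie at 0.970 to 1.36 and HSP990-treated mice at 0.112 to 0.528, with the control mice in between at 0.528 to 0.832.

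The 2 mice of a group differed far more in the metallothioneins than in most genes. The mean log2 gap between the 2 mice of a group was 0.88 for *Mt1* and 1.19 for *Mt2*, at percentiles 98.5 and 99.4 of the 11119 genes with a mean of at least 1 CPM, whose median was 0.22. The gap was 0.13 for *Mtf1* (percentile 15) and 0.27 for *Slc30a1* (percentile 64.1). Among the 12 untreated mice *Mt1* ranged 9.61-fold, from 6.31 CPM in an Hsf1-/- vehicle mouse to 60.7 CPM in an R6/2 vehicle mouse, and *Mt2* ranged 26.0-fold between the same mice. The widest gaps were in the vehicle groups, with log2 ratios between the 2 mice of 1.41 to 2.22 for *Mt1* and 1.71 to 3.29 for *Mt2*. In order of the group means, the 3 HS groups came first for both genes (wild type, R6/2, Hsf1-/-) and R6/2 mice with HSP990 came last. Of the 11 pairs of neighbours in that order, 7 overlapped for *Mt1* and 8 for *Mt2*, and wild type HS mice stood above every mouse of the next group for both genes.

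*Mtf1*, which encodes the sensor itself, barely moved. Its level was 36.5 to 57.9 CPM in all 24 mice. In wild type mice it was 41.9 and 42.8 CPM in controls and 42.7 and 50.5 CPM after HS (log2 fold change 0.14 ± 0.13 SE, 95% interval -0.13 to 0.40, edgeR adjusted p = 0.76). The highest values were those of the HSP990-treated R6/2 mice, 57.9 and 53.0 CPM, against 47.8 and 41.9 CPM with vehicle (log2 fold change 0.31 ± 0.12 SE, unadjusted p = 0.026, edgeR adjusted p = 0.41). The other 4 treatment comparisons gave log2 fold changes of 0.03 to 0.18. edgeR called *Mtf1* in none of the 18 comparisons fitted, and the HSP990 comparison in R6/2 mice was the only one with an unadjusted p below 0.05. DESeq2 called it in none of the 6 treatment comparisons.

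*Slc30a1*, the exporter, was higher after HS in all 3 genotypes, by less than the metallothioneins and without passing the adjustment. In wild type mice it was 24.4 and 19.6 CPM in controls and 31.8 and 37.7 CPM after HS (log2 fold change 0.66 ± 0.25 SE, edgeR adjusted p = 0.24). In R6/2 mice it was 19.2 and 21.2 CPM in controls and 43.3 and 37.4 CPM after HS (log2 fold change 1.00 ± 0.24 SE, 95% interval 0.48 to 1.52, unadjusted p = 0.00083, edgeR adjusted p = 0.18). In Hsf1-/- mice it was 29.3 and 31.9 CPM in controls and 41.8 and 37.6 CPM after HS (log2 fold change 0.38 ± 0.24 SE, edgeR adjusted p = 0.76). The HS and control mice did not overlap in any genotype, as held in the upward direction for 23% of all tested genes in wild type, 15.1% in R6/2 and 20.8% in Hsf1-/- mice. DESeq2 called the R6/2 difference (adjusted p = 0.015), and edgeR called the wild type one when only those 2 groups were fitted (adjusted p = 0.047). Each of these settings called more genes in its comparison than the main fit, with the numbers given below. After HSP990 the log2 fold changes were 0.33 ± 0.25 SE in wild type, -0.16 ± 0.24 SE in R6/2 and 0.45 ± 0.24 SE in Hsf1-/- mice (edgeR adjusted p = 0.63, 0.94 and 0.61). The R6/2 vehicle mouse with the highest metallothioneins also had the highest *Slc30a1* of the untreated mice, 43.0 CPM against 20.3 CPM in its group mate, and without the first vehicle mouse the difference between the responses of R6/2 mice to HS and to HSP990 rose from 1.16 ± 0.34 SE (edgeR adjusted p = 0.12) to 1.60 (adjusted p = 0.0017). Without the second vehicle mouse it was 0.53 (edgeR adjusted p = 0.63).

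**Figure D4:**
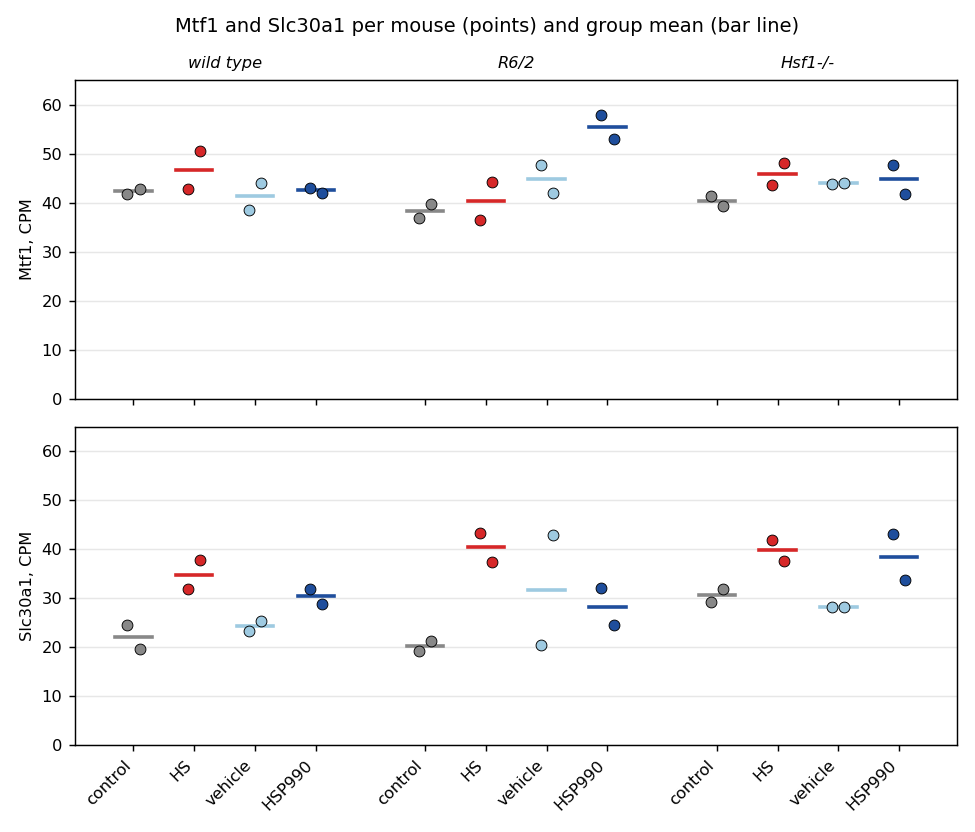
CPM of *Mtf1* (top) and *Slc30a1* (bottom) in the 12 groups, with 1 point per mouse and a line at the mean of the 2 mice of a group; both axes start at 0. *Mtf1* stays between 36.5 and 57.9 CPM, and *Slc30a1* is higher in HS than in control mice of each genotype.

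Compared per length of transcript, the 4 genes changed places with treatment. In wild type control mice *Mt1* stood at 26.3 ± 3.92 (SD, n = 2) and *Mt2* at 16.5 ± 2.86 CPM per kb, above *Mtf1* at 5.55 ± 0.087 and *Slc30a1* at 4.20 ± 0.65 CPM per kb. After HS *Mt1* and *Mt2* stood at 482 ± 60.5 and 505 ± 127 CPM per kb. In HSP990-treated R6/2 mice *Mt1* was at 7.46 ± 0.87 CPM per kb, next to *Mtf1* at 7.27 ± 0.45, and *Mt2*, at 1.53 ± 1.12, was below both *Mtf1* and *Slc30a1* (mean 5.39). The other metallothioneins were near absent. *Mt3* had at most 11 counts in a library and 0 in 5 of them, and no comparison of it was called. *Mt4* had 9 counts over all libraries, with 21 of 24 at 0, and was not tested.

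Of the other zinc transporters, edgeR called 1 of 8 tested exporters after HS in wild type mice, where 2.06% of all genes were called (1.59% higher). *Slc30a2*, which loads zinc into vesicles, was at 0.809 and 0.784 CPM in wild type controls and at 10.1 and 10.2 CPM after HS. Its level in R6/2 mice was 1.19 and 2.38 CPM in controls and 8.63 and 2.38 CPM after HS, and in Hsf1-/- mice at 14.9 and 8.46 CPM and at 13.2 and 14.6 CPM. It rose in wild type mice (log2 fold change 3.67 ± 0.81 SE, edgeR adjusted p = 0.025), whereas the log2 fold changes in R6/2 and Hsf1-/- mice were 1.64 and 0.25 (adjusted p = 0.55 and 0.97). The response of *Slc30a2* to HS exceeded that to HSP990 by 5.03 ± 1.06 SE in wild type and 4.47 in R6/2 mice (edgeR adjusted p = 0.017 and 0.032). In these 2 comparisons 2.38% and 1.63% of all genes were called. *Slc30a5*, an exporter of the secretory pathway, was the other exporter called for the difference between the responses in wild type mice (0.76 ± 0.19 SE, edgeR adjusted p = 0.048). *Slc30a2* was also higher in wild type vehicle mice, at 18.8 and 25.0 CPM, than in wild type controls (log2 fold change 4.78 ± 0.83 SE, edgeR adjusted p = 0.021, with 0.24% of all genes called, 0.0364% lower). It was the only one of the 8 tested exporters that edgeR called in a treatment comparison (DESeq2 also called falls of *Slc30a5* in wild type and *Slc30a2* in R6/2 mice after HSP990), and the median log2 fold change of the 8 lay between -0.11 and 0.14 in the 6 treatment comparisons, against -0.01 to 0.01 for all genes.

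None of the 12 tested zinc importers, 6 other genes linked to MTF1 or 10 genes of copper handling was called by edgeR in any of the 6 treatment comparisons. At an unadjusted p below 0.05 edgeR gave 6 of 72 tests of importers, 11 of 36 of genes linked to MTF1 and 6 of 60 of copper genes, beside 10.2% of the tests of all genes, and DESeq2 called 1, 0 and 0 of them, the 1 being a fall of *Slc39a14* after HSP990 in R6/2 mice. *Slc39a14*, an importer of zinc and iron that inflammatory cytokines induce, was at 21.0 ± 0.76 CPM (SD, n = 2) in wild type controls and at 43.2 ± 9.59 CPM after HS (log2 fold change 1.04, unadjusted p = 0.011, edgeR adjusted p = 0.19). For R6/2 mice it was at 22.9 and 65.9 CPM with vehicle and at 17.5 and 21.4 CPM with HSP990 (log2 fold change -1.19, edgeR adjusted p = 0.16). *Slc39a10*, an importer that MTF1 is known to repress, was at 16.4 and 14.3 CPM in wild type controls and at 9.43 and 8.40 CPM after HS (log2 fold change -0.78, edgeR adjusted p = 0.20). Both genes were chosen for mention after their values were seen. Of the 6 iron and heme genes edgeR called only *Hmox1*, the heme oxygenase, after treatment, and only in wild type mice. There 2.06% of all genes were called after HS and 1.85% after HSP990. DESeq2 also called a rise of *Hmox1* after HSP990 in Hsf1-/- mice and a lower HS response in R6/2 than in wild type mice. Among untreated wild type mice DESeq2 called *Hmox1* higher with vehicle than in controls. It rose in wild type mice after HS, from 7.82 and 8.06 to 21.7 and 26.2 CPM (log2 fold change 1.59 ± 0.24 SE, edgeR adjusted p = 0.0015), and after HSP990, from 24.8 and 17.3 to 87.8 and 73.6 CPM (log2 fold change 1.94 ± 0.23 SE, adjusted p = 0.00011).

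**Figure D5:**
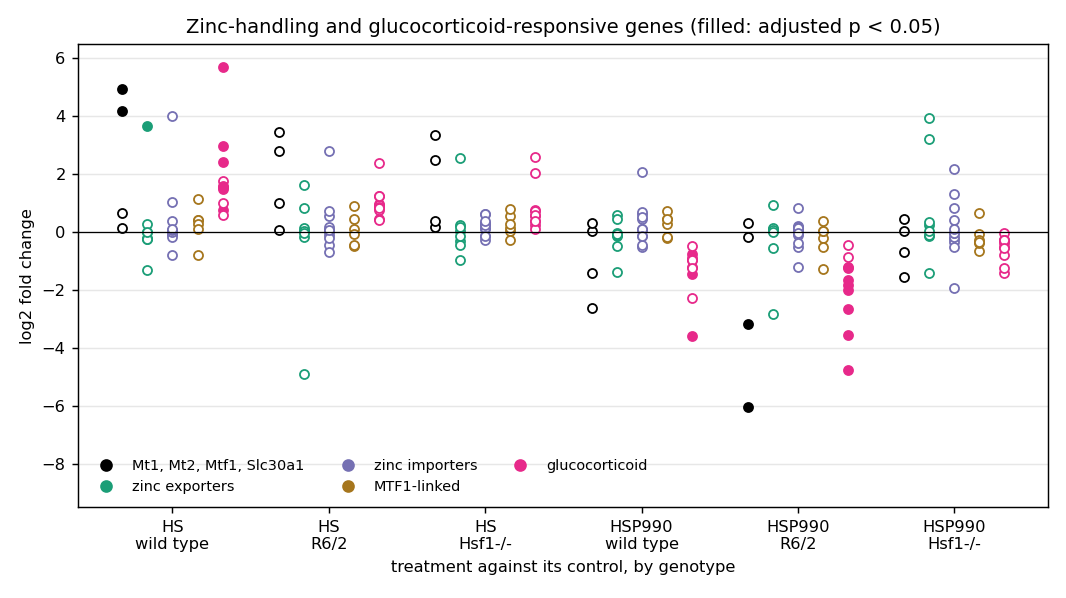
Log2 fold changes after HS and HSP990 in the 3 genotypes, 1 point per tested gene, for the 4 members, zinc exporters, zinc importers, genes linked to MTF1 and glucocorticoid-responsive genes; filled points passed an adjusted p of 0.05. *Slc30a2* is the only zinc exporter called, at 3.67 after HS in wild type mice, and no importer is called. The glucocorticoid-responsive genes lie above 0 after HS and below 0 after HSP990, in a list chosen with earlier results of these data known.

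Glucocorticoid-responsive genes, which share an inducer with the metallothioneins, had fold changes in the same directions. All 10 had a log2 fold change above 0 after HS in each genotype, and none had one above 0 after HSP990. The median of all tested genes lay between -0.01 and 0.01 in these comparisons. This list and the interleukin-6 list below were chosen with earlier results of these data known, so their counts of signs are only descriptive. In wild type mice 6 rose after HS (1.59% of all genes were called higher), among them *Ddit4*, an inhibitor of mTORC1 signalling, from 8.14 and 10.9 to 505 and 492 CPM (log2 fold change 5.71 ± 0.97 SE, edgeR adjusted p = 0.0047). After HSP990, 3 fell in wild type mice and 7 in R6/2 mice, where 0.407% and 0.96% of all genes were called lower. *Fkbp5*, a co-chaperone of the glucocorticoid receptor, fell from 98.4 and 372 to 22.2 and 17.1 CPM in wild type mice (log2 fold change -3.58 ± 0.69 SE, edgeR adjusted p = 0.012) and from 301 and 246 to 12.4 and 34.4 CPM in R6/2 mice (-3.54 ± 0.69 SE, adjusted p = 0.013). The median log2 fold change of the 10 genes was 1.58, 0.90 and 0.58 after HS and -1.08, -1.73 and -0.45 after HSP990 in wild type, R6/2 and Hsf1-/- mice. edgeR called none of them after HS in R6/2 or Hsf1-/- mice or after HSP990 in Hsf1-/- mice, where 6, 4 and 1 had an unadjusted p below 0.05 and DESeq2 called 3, 1 and 0. Of 8 tested genes of the interleukin-6 and STAT3 response, *Cebpd* and *Il4ra* rose after HS in wild type mice (log2 fold changes 3.55 ± 0.57 SE and 1.79 ± 0.39 SE, edgeR adjusted p = 0.0032 and 0.022). *Cebpd*, *Il4ra* and *Osmr* fell after HSP990 in R6/2 mice (log2 fold changes -3.41, -1.86 and -1.33, edgeR adjusted p = 0.0047, 0.020 and 0.022). All 8 had a log2 fold change above 0 after HS in each genotype (medians 1.53, 1.46 and 1.43 in wild type, R6/2 and Hsf1-/- mice). After HSP990, 3, 0 and 1 of the 8 had one above 0 (medians -0.14, -1.78 and -0.55). In the same order of genotypes DESeq2 called 4, 2 and 2 of them after HS and 0, 4 and 0 after HSP990. The part of these inducers in the values of the metallothioneins was not tested.

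Without treatment the 4 genes were not shown to differ between genotypes. Averaged over control and vehicle mice, R6/2 minus wild type was 0.36 ± 0.47 SE for *Mt1*, 0.77 ± 0.61 for *Mt2*, -0.01 ± 0.09 for *Mtf1* and 0.13 ± 0.17 for *Slc30a1* on the log2 scale (edgeR adjusted p of 0.37 to 0.93). That is against 30.5% of all genes called. When only library size was used for scaling, the median of all genes in this comparison went from 0.05 to 0.66, and *Mtf1* then stood at 0.59 and *Slc30a1* at 0.73, so their levels relative to the bulk of genes differ little from 0 under either scaling. Hsf1-/- minus wild type was -0.27 ± 0.48 SE, -0.51 ± 0.63, 0.01 ± 0.09 and 0.35 ± 0.17 in the same order (edgeR adjusted p of 0.38 to 0.98, with 0.974% of all genes called, 0.284% higher). In untreated R6/2 minus wild type mice, 4 of 12 tested importers were called (3 higher, 1 lower) and 3 of 6 iron and heme genes (all lower). That stands beside the 30.5% of all genes called there. Of the importers, *Slc39a8* and *Slc39a6* were higher in R6/2 mice (log2 fold changes 1.90 ± 0.29 SE and 1.05 ± 0.16 SE, edgeR adjusted p = 0.00014 for both), as was *Slc39a1*, and *Slc39a13* was lower (-0.44 ± 0.08 SE, adjusted p = 0.00072). *Tfrc*, the transferrin receptor, was lower (-1.54 ± 0.26 SE, edgeR adjusted p = 0.00032). The lower muscle marker sum of R6/2 mice given above moves with these differences, and its part in them was not tested.

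Vehicle and anaesthetised control mice of a genotype were also compared. In wild type mice both vehicle mice lay above both controls for *Mt1* and *Mt2* (log2 differences 1.16 ± 0.68 SE and 1.81 ± 0.90 SE, edgeR adjusted p = 0.46 and 0.38), where 24.2% of all genes did not overlap in this direction. In R6/2 and Hsf1-/- mice the groups overlapped. The R6/2 differences were 0.86 for *Mt1*, 1.95 for *Mt2* and 0.65 for *Slc30a1* (edgeR adjusted p = 0.78, 0.55 and 0.44, with 0.0654% of all genes called, 0.0364% higher). In wild type and R6/2 mice the handling, the vehicle and the Y-linked transcripts cannot be told apart in this comparison.

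The genes with levels most like those of *Mt1* and *Mt2* over the 24 libraries were, after each other, *Slc7a8*, a transporter of neutral amino acids, and *Tinagl1*, a matricellular protein. Pearson's r of the log2 levels was 0.953 between *Mt2* and *Slc7a8* and 0.933 between *Mt1* and *Tinagl1*. The libraries share groups and the HS mice carry much of the likeness: over the 18 other libraries the 2 values were 0.890 and 0.779. Next came *Foxo1* (0.921) and *Irak3* (0.920) for *Mt1*, and *Irak3* (0.930) and *Map3k6* (0.925) for *Mt2*. *Tinagl1* rose after HS in wild type and R6/2 mice (log2 fold changes 1.75 and 1.40, edgeR adjusted p = 0.00069 and 0.043) and fell after HSP990 in R6/2 mice (-1.34, adjusted p = 0.0067). *Slc7a8* rose after HS in wild type mice (2.17, edgeR adjusted p = 0.0069) and fell after HSP990 in R6/2 mice (-2.24, adjusted p = 0.0070). *Foxo1* and *Map3k6* were also called after HS in wild type mice, and *Map3k6* after HSP990 in wild type and R6/2 mice. *Irak3* was called in none of the 6 treatment comparisons (edgeR adjusted p of 0.22 to 0.91). These genes were picked for likeness over the same libraries, so their tests are not independent of that choice. For *Slc30a1* the most alike were *Sh3tc1* (0.857), *Rapgef5* (0.818), *Clic4* (0.813), *Anks1* (0.810) and *Rasip1* (0.806). For *Mtf1*, whose levels varied least, they were *Lats2* (0.716), *Slc20a1* (0.651), *Prps1l3* (0.641), *Ccdc14* (0.637) and *Capn11* (0.613). Among the members themselves r was 0.48 between *Mt1* and *Slc30a1*, 0.43 between *Mt2* and *Slc30a1* and -0.21 between *Mt1* and *Mtf1*.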

How the data were processed

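RNA from quadriceps muscle of 24 mice was sequenced as strand-specific, paired-end, polyA-selected libraries. The authors aligned the reads with Bowtie to mm9 and deposited raw counts per NCBI gene identifier, which they tested with DESeq2. The counting program and annotation are not given in the sources used here. Symbols were matched for 18594 of 18669 genes, and 0 columns were left unused. A gene was tested if 10 or more libraries had 2 or more counts of it, which left 13754. The TMM factors ranged from 1.19 to 1.40 for R6/2 mice and from 0.808 to 0.954 for all other mice, so R6/2 levels depend on this scaling. All 24 libraries were fitted together in 12 groups (edgeR 4.0.16 quasi-likelihood test, limma 3.58.1, R 4.3.3, 12 residual degrees of freedom), with Benjamini-Hochberg adjustment over all genes at 0.05 in each of 18 comparisons. Errors are SE of the log2 fold change or SD of the 2 mice. The labels give separate samples but do not say more of the replicates, so p-values measure the spread between these samples. Alternatives were DESeq2 1.42.0, its size factors, library size alone, no filter, a replicate block, only the groups compared, and leaving out each mouse. Likeness is Pearson's r of log2(CPM + 0.5) over genes with a mean of at least 1 CPM. Named are the 4 members, *Mt3* and *Mt4*, per comparison up to 3 called genes of each list with the largest change, the 5 genes most like each member, and the genes that check genotype and treatment. Outside this rule, *Slc39a14* and *Slc39a10* were named after their values were seen, and all 4 importers called in untreated R6/2 mice are named. The members and lists were chosen with earlier results of these data known. Positions are from GENCODE vM1 on mm9, and copies were searched with minimap2 2.31-r1302. The fit was run on simulated counts with the same spread for every gene, which does not test it for genes as variable as *Mt1* and *Mt2*.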

Additional observations from a re-analysis of the deposited data

How the results depend on the processing

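With 2 mice a group, 1 library decides several calls, and depth does not limit *Mt1*, *Mtf1* or *Slc30a1*, while *Mt2* in HSP990-treated R6/2 mice rests on 16 and 62 counts. The 8 member results called kept their sign in all 96 alternative values and their call in 78 of them, and of 552 alternative values of the 46 results not called, 14 were called. Replicate numbers did not pair the mice (correlations of deviations -0.24, -0.18, 0.27, 0.24, -0.08 and -0.12). With a replicate block *Mt1* after HSP990 in R6/2 mice was -3.13 (edgeR adjusted p = 0.056), 9 genes were called after HS in Hsf1-/- mice, and no other member call changed.

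With only the groups compared in the fit, edgeR gave *Mt1* and *Mt2* after HSP990 in R6/2 mice as -3.18 and -6.04 (adjusted p = 0.24 and 0.20), their HS minus HSP990 responses in R6/2 mice as 5.99 and 9.49 (0.053 both), *Slc30a1* after HS in wild type mice as 0.67 (0.047), and *Mt1* and *Mt2* after HS in Hsf1-/- mice as 2.49 and 3.36 (0.012 and 0.017). DESeq2 gave *Mt1*, *Mt2* and *Slc30a1* after HS in R6/2 mice as 2.79, 3.44 and 0.99 (adjusted p = 0.025, 0.041 and 0.015), *Mt2* after HS in Hsf1-/- mice as 3.36 (0.046), *Slc30a1* in HS minus HSP990 in R6/2 mice as 1.16 (0.032) and *Mt2* there in Hsf1-/- mice as 4.92 (0.031). With library size only, *Mtf1* was -0.0355 after HS in R6/2, 0.59 in untreated R6/2 (edgeR adjusted p = 4.1e-05) and -0.0289 in untreated Hsf1-/- mice, and *Slc30a1* 0.73 in untreated R6/2 mice (0.0014). With control mice only, untreated R6/2 minus wild type was -0.12 for *Slc30a1*, and Hsf1-/- minus wild type 0.35, 0.32 and -0.0693 for *Mt1*, *Mt2* and *Mtf1*. With vehicle mice only, *Mtf1* was 0.12 in R6/2 mice. The cause of these changes was not tested.

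Leaving out 1 mouse at a time, *Mt1* ranged from 2.14 to 3.45 after HS in R6/2, 4.05 to 4.36 after HS in wild type, -3.91 to -1.65 after HSP990 in R6/2 and -1.38 to 0.76 after HSP990 in Hsf1-/- mice, -0.15 to 2.19 for the HSP990 response of Hsf1-/- minus wild type, -0.99 to 0.18 in untreated Hsf1-/-, -0.41 to 0.80 in untreated R6/2, and -1.52 to 0.62 and -0.68 to 1.59 for vehicle minus control in Hsf1-/- and R6/2 mice. *Mt2* ranged from 4.65 to 5.17 after HS in wild type, 6.43 to 8.18 for HS minus HSP990 in wild type (the call was lost without wild type control 1 or HSP990 mouse 2, edgeR adjusted p = 0.055 and 0.056), -2.29 to 0.11 and -7.11 to -3.55 after HSP990 in Hsf1-/- and R6/2 mice, -0.0493 to 2.74 for the HSP990 response of Hsf1-/- minus wild type, -1.34 to 0.0569 and -0.47 to 1.33 in untreated Hsf1-/- and R6/2, and -1.50 to 0.90 and -0.53 to 3.08 for vehicle minus control in Hsf1-/- and R6/2 mice. *Mtf1* ranged from -0.0664 to 0.21 after HS in R6/2, -0.0646 to 0.12 and -0.0499 to 0.14 after HSP990 in Hsf1-/- and wild type, and -0.0357 to 0.0600 and -0.0614 to 0.0369 in untreated Hsf1-/- and R6/2 mice. *Slc30a1* in R6/2 mice ranged from 0.53 to 1.60 for HS minus HSP990, -0.61 to 0.47 after HSP990, -0.19 to 0.35 untreated and 0.0107 to 1.09 for vehicle minus control.

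Numbers of genes called moved more. After HS in wild type mice they were 283, 542 with DESeq2, 598 with only the groups compared and 40 to 124 without 1 mouse. In R6/2 mice they were 6, 127, 10, 3 with library size only, 13 with no filter and 3 to 500 without 1 mouse. In Hsf1-/- mice they were 1, 161, 98, 6 with RLE size factors, 28 with no filter and 0 to 30 without 1 mouse. After HSP990 they were 255, 542, 158 and 59 to 169 in wild type, 197, 376, 8 and 50 to 228 in R6/2, and 30, 142, 0 and 11 to 146 in Hsf1-/- mice, in the order main, DESeq2, only the groups compared and without 1 mouse. In the same order they were 10, 34, 0 and 0 to 90 for the HS response of R6/2 minus wild type and 22, 40, 44 and 10 to 16 for that of Hsf1-/-. For the HSP990 response they were 0, 49, 0 and 0 to 10 for R6/2 and 58, 118, 24 and 36 to 73 for Hsf1-/- mice. For HS minus HSP990 they were 328, 648, 596 and 94 to 293 in wild type, 224, 442, 23 and 98 to 450 in R6/2, and 20, 179, 14 and 3 to 81 in Hsf1-/- mice (11 with library size only). For untreated R6/2 mice they were 4194, 8876 with library size only, 1711 with control mice and 2638 with vehicle mice, and for untreated Hsf1-/- mice 134, 369 with DESeq2, 266, 12 and 29 to 72 without 1 mouse. For vehicle minus control they were 33, 284 with DESeq2, 127 with only the groups compared, 56 with no filter and 4 to 13 without 1 mouse in wild type, 9, 79, 4, 4 with library size only and 6 to 31 without 1 mouse in R6/2, and 0, 14 and 6 in Hsf1-/- mice. Of the 5 genes most like a member, 2, 3, 2 and 1 were shared for *Mt1*, *Mt2*, *Mtf1* and *Slc30a1* without the heat-shocked mice, an alternative chosen after seeing the data, and 3 for *Mtf1* with no minimum level.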

Other observations

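In some groups the untreated mice differed in other genes together with the metallothioneins. The R6/2 vehicle mouse with 105 CPM of *Mt2*, against 10.3 CPM in the other mouse of its group, also had 281 against 50.2 CPM of *Ddit4* and 65.9 against 22.9 CPM of *Slc39a14*. Its *Fkbp5* was not higher, at 246 against 301 CPM. In the wild type and Hsf1-/- vehicle groups the mouse with more *Mt1* had more *Fkbp5*, with 372 against 98.4 CPM and 299 against 76.4 CPM. In the R6/2 control group the mouse with 27.5 against 12.9 CPM of *Mt1* had 402 against 132 CPM of *Fkbp5* and 98.1 against 14.7 CPM of *Ddit4*. These mice were picked for their *Mt1* and *Mt2* levels after the values were seen, and no test was made. The genes named are only a few of their lists. *Ddit4* is given for R6/2 mice only, and the wild type and Hsf1-/- control groups are not shown.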
